A study of Nicotiana benthamiana with 9 samples.

Results

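A set of 285 assembled sequences of the Nicotiana benthamiana genome held nearly the same level of leaf RNA in mock, heat-treated and wounded plants. They were chosen by their values: a mean of at least 50 and under 900 CPM (counts per 1000000, in the authors' scaled columns) over 9 libraries, with the highest library at most 125% of the lowest. Of the 56094 sequences in the deposited table, 3310 lay in that band of means, and 285 of these (8.61%) met the ratio limit. Because the choice used all 9 libraries, the levels of the 285 are given as a description and support no test.

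Nicotiana benthamiana is a wild relative of tobacco used widely as a host for transient expression. Leaves of 5-week-old plants grown in soil were taken in 3 groups of 3 biological replicates, with mock as the control. Mock plants stayed unwounded at 23 °C for 1 h, heat plants were put at 37 °C for 1 h, and the leaves of wound plants were injured with scissors and the plants then kept at 23 °C for 1 h. All groups were handled for the same time, and no allele or agent other than heat or the cut separates them in the labels.

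Measuring a response needs something that does not respond. Quantitative PCR and count normalisation both lean on transcripts whose level varies little, the so-called reference or housekeeping genes, such as those for actin, tubulin, protein phosphatase 2A subunits or ribosomal proteins in plants. Heat shock in plants switches on chaperone genes through heat shock transcription factors and slows much other transcription and translation, and wounding sets off jasmonate signalling, so a transcript steady under one stress need not be steady under the other. RNA of a whole leaf sums over all its cells, and fewer cells of a type and less RNA per cell cannot be told apart in it.

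The table counts reads over whole scaffolds and contigs, not over genes, and it pairs no sequence with a gene, so no reference gene, pathway or cell type marker could be looked up and the identity of the tissue was not checked against markers. A steady scaffold may carry a single active gene or several genes whose changes average out. Library totals ran from 13846165 to 17480792 counts. The steady sequences held 4.89% ± 0.218 of the count in mock, 4.50% ± 0.115 in heat and 4.72% ± 0.0185 in wound libraries (SD, n = 3). These shares are of unscaled totals, while the rule used values scaled by the authors' library factors, which ran from 0.9357 to 1.099.

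The steady sequences were all scaffolds, between 22101 and 2261538 nt long, with a median of 581554 nt. The other 3025 sequences of the band had a median of 408239 nt, and 36 sequences of the band were contigs. Of the steady sequences, 263 (92.3%) were at least 200000 nt long, against 2700 of 3310 (81.6%) in the whole band, and 8 were under 100000 nt. Mean levels ran from 50.57 to 867.6 CPM with a median of 134.3 CPM, and the smallest count of a steady sequence in any library was 602. Per length, their median RPKM over the libraries (counts per kilobase and per 1000000 counts, by the authors) ran from 0.0601 to 20.6, with a median of 0.222 against 0.271 for the rest of the band.

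The ratio of the highest to the lowest library ran from 1.087 to the limit among the steady sequences, with a median of 1.209. Most lay near the limit: 158 of 285 (55.4%) had a ratio above 1.2, 82 lay above 1.15 and up to 1.2, and 45 were at 1.15 or under, of which 4 were at 1.1 or under. The distribution had no gap at the limit. In the band, 853 sequences lay above the limit and up to 1.5, 1060 above 1.5 and up to 2, and 1111 above 2, and the remaining 1 had a library with no count and so no ratio.

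The threshold cut through near-equal values. Niben101Scf06344 and Niben101Scf01848 were just inside it, with ratios of 1.24984 and 1.24993. Niben101Scf10616 and Niben101Scf00113 were just outside, with 1.25041 and 1.25046. At the limits of the mean, Niben101Scf04992 met the ratio limit at 49.8979 CPM and Niben101Scf01220 at 1027 CPM, and neither was counted. Over all means, 359 sequences met the ratio limit, of which 60 were below 50 CPM and 14 were at or above 900 CPM.

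The 5 sequences with the lowest ratios were scaffolds of 300936 to 1553232 nt. The steadiest, Niben101Scf07030 (991010 nt), had 87.32, 80.34 and 82.9 CPM in the mock libraries. Its heat libraries held 81.35, 81.71 and 82.23 CPM and its wound libraries 80.77, 84.39 and 84.85 CPM. The 3 groups overlapped, the highest and the lowest value were both in mock, and the coefficient of variation (CV) over the 9 libraries was 2.73%. Counting noise alone would give a CV of 2.82% at its depth, so this was the single steady sequence whose spread was under counting noise.

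Niben101Scf00585 (602836 nt) had 61.26, 62.36 and 57.23 CPM in mock, 60.94, 58.04 and 57.05 CPM in heat and 61.97, 58.43 and 60.68 CPM in wound libraries. Its groups overlapped throughout, and its CV was 3.48% against 3.32% from counting noise. Niben101Scf04473 (1553232 nt) had 153.1, 147.2 and 156.7 CPM in mock, 156.4, 154.6 and 150.6 CPM in heat and 159.6, 145.8 and 157.5 CPM in wound libraries. Wound libraries held both its extremes.

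Niben101Scf00085 (719043 nt) had 169.7, 159.3 and 160.6 CPM in mock, 175, 168.5 and 172.7 CPM in heat and 167.7, 169.9 and 161.7 CPM in wound libraries. Its heat libraries were mostly above the rest, yet the lowest of them lay below a mock library. The remaining one of the 5, Niben101Scf00653 (300936 nt), had 145.3, 149.4 and 149.2 CPM in mock, 153.1, 146.3 and 154.3 CPM in heat and 160, 151.4 and 154.7 CPM in wound libraries. All 3 wound libraries were above all 3 mock libraries there, by a small margin, with group means of 148 ± 2.33 and 155.4 ± 4.34 CPM (SD, n = 3).

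Short sequences are the nearest the table comes to a locus of few genes, and the 3 shortest steady ones were 22101, 25488 and 43989 nt long. Niben101Scf02685 (25488 nt) had 531, 538.3 and 514.4 CPM in mock, 528, 526.1 and 543.2 CPM in heat and 560.6, 510.4 and 481.8 CPM in wound libraries. Mock and heat libraries interleaved, wound libraries were the most scattered, and its median of 20.6 RPKM was the highest per-length level of any steady sequence. Its CV was 4.25%, against 1.12% from counting noise.

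Niben101Scf05819 (22101 nt) was steady by the rule yet sorted by group. It had 62.75, 62.42 and 63 CPM in mock, 58.18, 60.09 and 57.77 CPM in heat and 68.93, 69.45 and 68.56 CPM in wound libraries. No group overlapped another. Niben101Scf08859 (43989 nt) showed the opposite arrangement, with 86.86, 85.44 and 83.43 CPM in mock, 78.73, 82.01 and 88.92 CPM in heat and 89.48, 91.1 and 76.31 CPM in wound libraries. Its extremes were 2 wound libraries, and its group means of 85.24, 83.22 and 85.63 CPM lay close together. For Niben101Scf05819, the edgeR test given below called neither heat (adjusted p = 0.3815) nor wound (adjusted p = 0.3017) against mock. It called heat against wound (adjusted p = 0.03484). The rule used the same libraries, so nothing is read from this call.

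**Figure D1:**
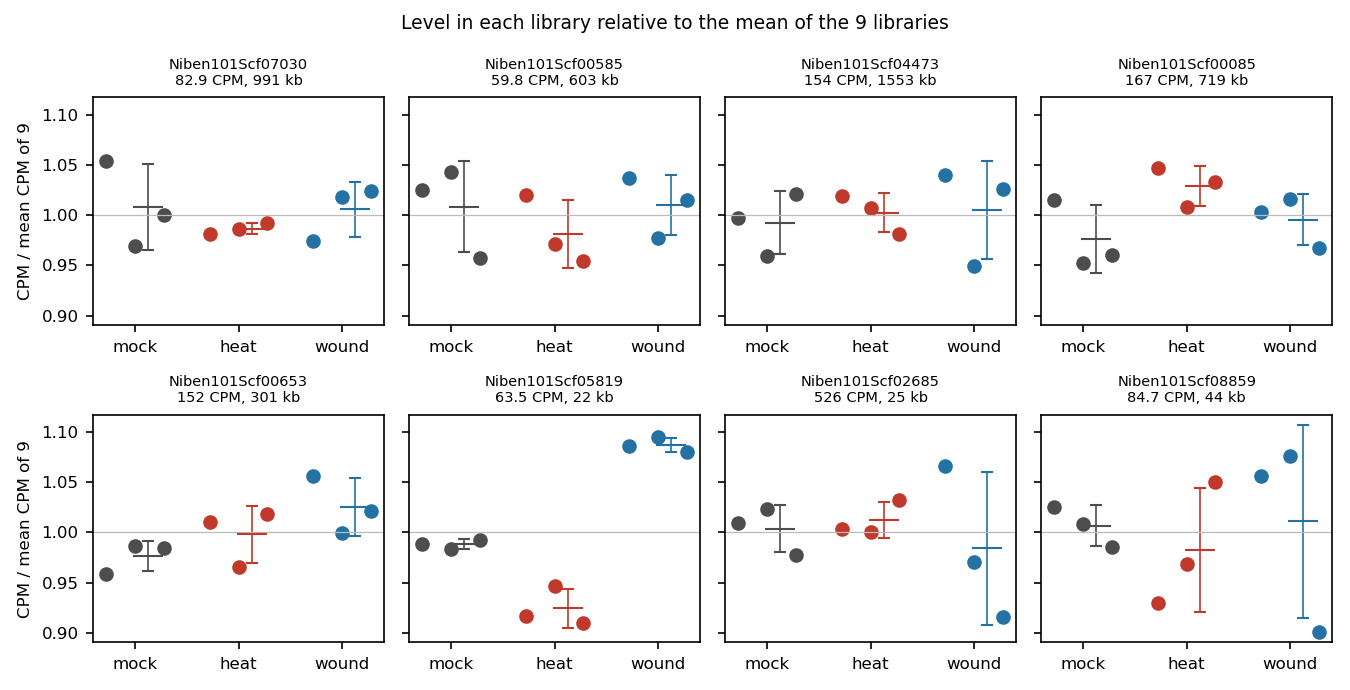
Level in each library, as CPM divided by the sequence's mean over the 9 libraries, for the 5 steady sequences with the lowest ratios and the 3 shortest. Points are libraries, and the dash with its bar beside them is the group mean ± SD (n = 3). Points of the 3 groups mix in most panels, while Niben101Scf05819 is sorted into 3 levels by group.

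The 2 longest steady sequences were near the limit. Niben101Scf02182 (2215585 nt) had a ratio of 1.243 and group means of 405.5 ± 20.8 CPM in mock, 398.5 ± 21 CPM in heat and 445.7 ± 18.3 CPM in wound libraries (SD, n = 3). Niben101Scf00448 (2261538 nt) had a ratio of 1.245 and group means of 133.6 ± 10.4, 134.4 ± 9.24 and 149.7 ± 5.41 CPM in the same order. In both, the wound mean was the highest. Among the 285, the Spearman correlation of length with CV was -0.0944, a description over sequences of the same libraries.

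The most abundant steady sequence was Niben101Scf00246 (754725 nt, mean 867.6 CPM), with 835 ± 56.5 CPM in mock, 863.4 ± 78.4 in heat and 904.4 ± 35.4 in wound libraries (SD, n = 3). The least abundant was Niben101Scf05151 (492314 nt, mean 50.57 CPM), with 50.94 ± 3.25, 49 ± 3.96 and 51.76 ± 2.41 CPM. Their CVs were near each other, at 6.88% and 6.11%, although counting noise would give 0.872% and 3.6%.

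Counting noise would have left nearly the whole band inside the limit. For each sequence, the probability that 9 Poisson counts of one common level, each at its library's depth, stay within the limit was summed exactly. Over the 3310 sequences this gave 3309.9 expected within the limit, against 285 observed. At a limit of 1.1 the expectation was 2644.7 and 4 were observed, and at 1.05 it was 784.19 and none was observed. At a limit of 2, 2198 (66.4%) were within, where counting noise alone would leave all 3310. The calculation covers counting error only, and the libraries came from separate biological replicates.

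**Figure D2:**
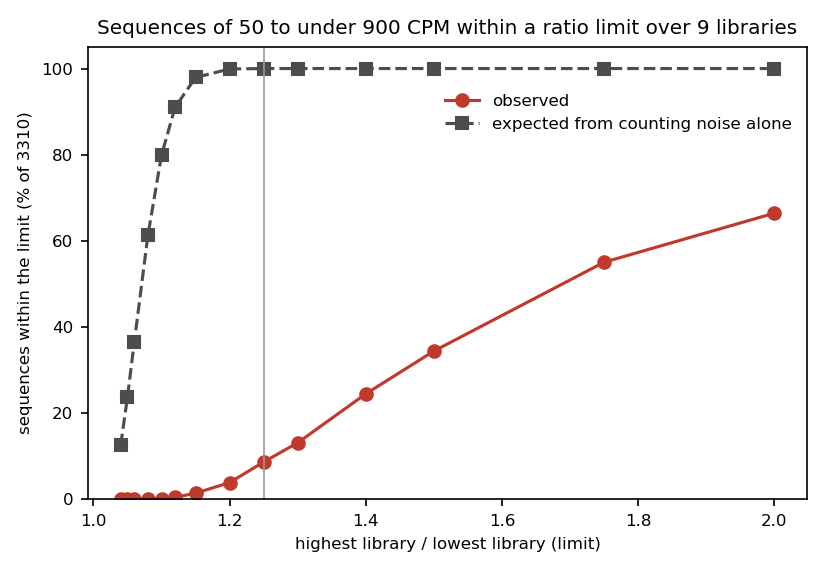
Share of the 3310 sequences of 50 to under 900 CPM whose highest library is within a given multiple of the lowest (horizontal axis), as observed and as calculated for 9 libraries that differ by counting noise alone. The vertical line marks the limit of the rule, where 8.61% were observed.

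The CV over the 9 libraries ran from 2.73% to 9.82% among the steady sequences, with a median of 6.35%. Counting noise would give a median of 2.21% for the same sequences, and the observed CV was a median of 2.66 times the counting CV. In 53 of 285 (18.6%) the CV was at most 2 times the counting CV. In the rest of the band this held for 1 of 3025, the median CV was 19.3% and the median multiple was 8.46. The CV was under the counting CV in 1 of the 285 and in 0 of the others.

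**Figure D3:**
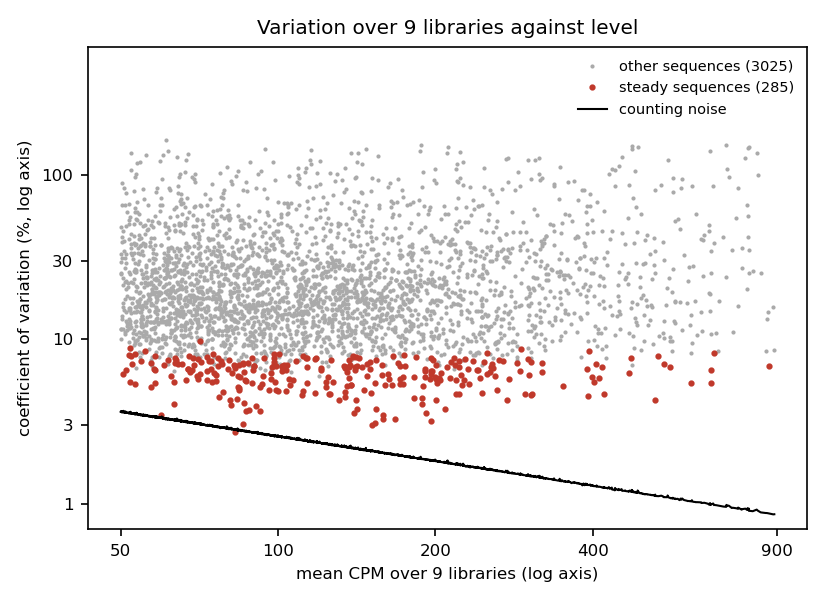
Coefficient of variation over the 9 libraries against mean CPM for the 3310 sequences of the band, both on log axes. Red points are the 285 steady sequences, grey points the other 3025, and the black line is the CV from counting noise alone. One red point lies below the line, and the red points do not follow its slope.

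Within groups the steady sequences also varied less than the others. Their median CV between the 3 libraries was 4.55% in mock, 4.4% in heat and 3.96% in wound libraries, against 8.24%, 9.07% and 7.2% in the rest of the band. The rule fixes part of this, since it limits the spread in every group. Of the total sum of squares of a steady sequence, a median of 48.8% lay between groups, against 81.2% for the rest of the band. The share that groups of equal level would give was not calculated, so 48.8% does not mean that the groups were alike.

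No single library set the extremes. The highest value of a steady sequence fell in wound replicate 1 most often (45 of 285) and in wound replicate 3 least often (23). The lowest value fell in mock replicate 2 most often (48) and in mock replicate 1 least often (21). In 37 of 285 (13%) the highest and the lowest library belonged to the same group, against 80 of 3025 (2.64%) in the rest of the band. The share for libraries ordered without regard to group was not calculated, so 13% does not mean that the groups mixed freely.

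Group means of the steady sequences lay close together by construction. The highest group mean was between 1.013 and 1.197 times the lowest, with a median of 1.092, and it was within 1.05 times for 42 sequences and within 1.1 times for 163. Heat had the lowest group mean in 114 sequences (40%, against 39.1% in the rest of the band). It had the highest in 85 (29.8%, against 44.4%). Wound had the highest in 108 (37.9%, against 32.7%) and the lowest in 90 (31.6%, against 27%). Mock had the highest in 92 (32.3%, against 22.9%) and the lowest in 81 (28.4%, against 33.9%).

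With p-values of edgeR's quasi-likelihood test adjusted by Benjamini-Hochberg over 9645 sequences, heat against mock called 7 steady sequences higher and 3 lower, beside 27.4% and 22.8% of all tested sequences. Wound against mock called 0 higher and 1 lower, beside 9.86% and 5.02%. At an unadjusted p under 0.05, edgeR gave 4 higher and 3 lower after wounding, where no share of all tested sequences was taken. DESeq2 with adjustment gave 1 and 3, beside 10.8% and 7.85%. Heat against wound called 9 higher and 3 lower, beside 26.7% and 25%. The rule used these contrasts, so nothing is read from the counts. They rest on the scaling and on single libraries. The 7 and 3 for heat became 0 and 109 with upper-quartile factors, beside 21.1% and 33.1% of all tested sequences. They became 3 and 0 without mock replicate 1, beside 24.4% and 19.2%. Without mock replicate 3 they were 2 and 0, beside 24.2% and 18.8%. Without heat replicate 3 they were 4 and 1, beside 24.3% and 18.8%. The lower calls also went to 0 without heat replicate 1, beside 19%. They went to 1 without heat replicate 2 or wound replicate 1, beside 21.6% and 21.2%. The lower call for wounding was lost without any 1 mock or wound library or without heat replicate 1. The share called lower of all tested sequences was then 1.97% to 4.78%. For heat against wound, 9 and 3 became 0 and 50 with upper-quartile factors, beside 22.5% and 31.7% of all tested sequences. They became 17 and 1 without mock replicate 2, beside 28.1% and 24.1%, and 5 and 0 without heat replicate 3, beside 24.7% and 21.2%. Without wound replicate 1 they were 4 and 0, beside 23.4% and 21.1%. Without wound replicate 3 they were 2 and 0, beside 23.9% and 21.6%. The lower calls went to 0 or 1 without mock replicate 1 or 3, heat replicate 1 or wound replicate 2, beside 20.4% to 24%.

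All 3 heat libraries lay above all 3 mock libraries in 36 steady sequences and below them in 42, beside 29.7% and 27.5% of all tested sequences. The corresponding numbers for wound against mock were 42 and 38, beside 19.5% and 16%. For heat against wound they were 43 and 55, beside 29.4% and 30.8%. A ratio limit does not stop groups from being ordered, as Niben101Scf05819 shows.

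The steady sequences with the widest fitted differences show what the limit lets through. Niben101Scf05552 (1196663 nt) had 229.9, 226.6 and 235.1 CPM in mock, 281.7, 265.8 and 280.3 CPM in heat and 244.9, 242.7 and 254.3 CPM in wound libraries, with a heat log2 fold change of 0.27 ± 0.0747 (SE). Every heat library was above every other library. Niben101Scf09628 (454120 nt) had 99.7, 104 and 100.7 CPM in mock, 85.63, 87.78 and 84.34 CPM in heat and 92.47, 99.11 and 91.74 CPM in wound libraries, with a heat log2 fold change of -0.23 ± 0.0763. Every heat library was below every other library.

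For wounding, Niben101Scf00110 (612810 nt) had 650.6, 628.3 and 646.1 CPM in mock, 629.8, 661.9 and 659.7 CPM in heat and 758.1, 760.1 and 751.9 CPM in wound libraries, with a wound log2 fold change of 0.23 ± 0.0772 (SE). Mock and heat libraries overlapped and the wound libraries stood above them. Niben101Scf10067 (317462 nt) had 80.74, 79.49 and 79.19 CPM in mock, 79.75, 76.47 and 79.28 CPM in heat and 65.68, 67.4 and 68.82 CPM in wound libraries, with a wound log2 fold change of -0.25 ± 0.0768. Here the wound libraries stood below all others.

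The median standard error of a heat log2 fold change was 0.084 for the steady sequences and 0.109 for the rest of the band. The median half-width of its 95% interval was 0.184 for the steady ones, while the ratio limit is 0.322 on the log2 scale. The choice favoured small standard errors, since it limits the spread of the same libraries, so these values describe the fit and bound no change.

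Steady sequences became more frequent with length. None of the 51 band sequences under 20000 nt was steady, a share whose exact 95% binomial (Clopper-Pearson) interval reaches 6.98%. The share was 3.94% (2.48% to 5.9%) from 20000 nt to under 200000 nt and 7.29% (5.95% to 8.82%) from there to under 500000 nt. It was 11.1% (9.26% to 13.2%) from 500000 nt to under 1000000 nt and 14.9% (11.4% to 19.1%) above that. These intervals treat sequences as independent and say nothing of variation between plants.

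Level went with the share less clearly. It was 7.37% (107 of 1452) from 50 to under 100 CPM, 9.34% (103 of 1103) to under 200 CPM, 10.8% (59 of 545) to under 400 CPM and 7.62% (16 of 210) above that. Median CVs were 17.8%, 17.3%, 19.3% and 21.2% in the same classes, while the counting CV dropped from 3.06% to 1.12%. Over the 3310 sequences, the Spearman correlation with CV was -0.204 for length and 0.013 for mean CPM. Length and mean CPM were themselves correlated at 0.305.

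**Figure D4:**
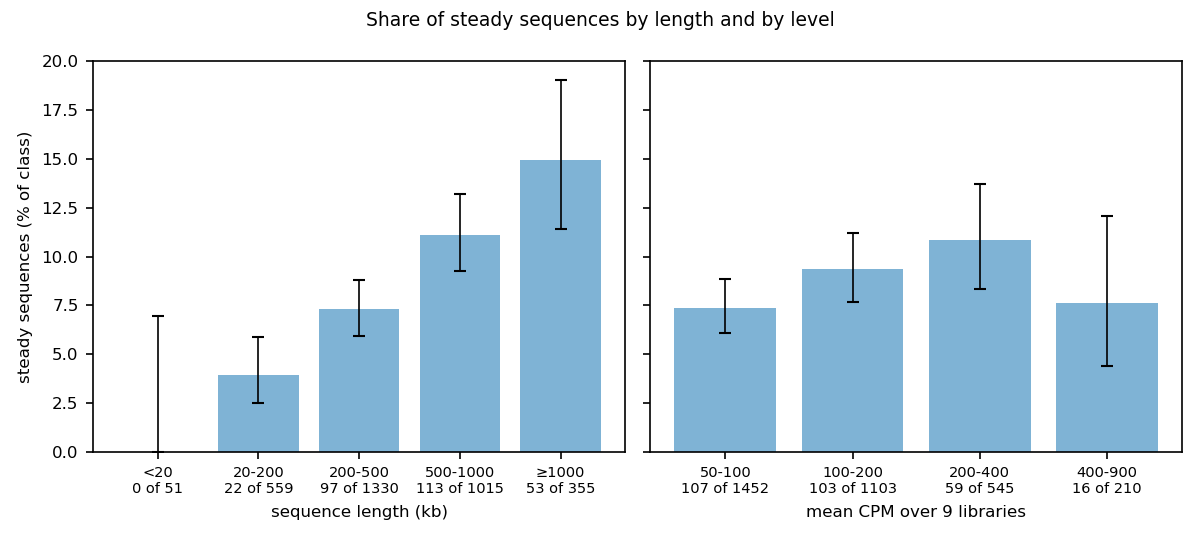
Steady sequences as a percentage of the band sequences in each class of length (left) and of mean CPM (right), with exact 95% binomial intervals and the numbers under each bar. The share climbs over the length classes from 0 of 51 to 53 of 355, and the intervals of the level classes overlap.

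At matched level the length pattern was seen in part. From 100 to under 200 CPM the share was 3.97% (6 of 151) from 20000 nt to under 200000 nt, 5.65% (24 of 425) and 11.5% (44 of 381) in the next classes, and 21.8% (29 of 133) at 1000000 nt or more. From 200 to under 400 CPM the shares were 5.08%, 6.79%, 13.5% and 15.5%. From 50 to under 100 CPM they were 3.44%, 8.8%, 8.89% and 5.88%, and from 400 to under 900 CPM 6.9%, 2%, 13.5% and 5.45%, the last on 3 of 55. Length and CV also went together within each group of libraries, with Spearman correlations of -0.259 in mock, -0.185 in heat and -0.213 in wound libraries over the band. Whether long scaffolds average several genes was not tested, since the table does not give the genes on a scaffold.

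The ratio was also taken over fewer libraries. A range grows with the number of libraries, so numbers over 3, 6 and 9 libraries are set side by side only at the same number. Within 3 libraries of a group, 2411 of 3310 sequences (72.8%) met the limit in mock, 2252 (68%) in heat and 2638 (79.7%) in wound. Over the 6 libraries of 2 groups, 1127 (34%) met it in mock and wound, 526 (15.9%) in mock and heat, and 611 (18.5%) in heat and wound. The 285 steady sequences were 25.3%, 54.2% and 46.6% of these. At 6 libraries, the pair without heat held the most sequences within the limit.

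Values not used in a choice were read by applying the rule to 2 groups and looking at the group left out. The band of means was then also taken over the 6 libraries of those groups, so the numbers of sequences differ from those above. Of 1107 sequences steady over mock and wound libraries, 646 (58.4%) had a heat mean of 80% to 125% of the mean of those 6 libraries, 271 were above and 190 below. Of the 523 steady over mock and heat, 458 (87.6%) had a wound mean within it, and of the 617 steady over heat and wound, 546 (88.5%) had a mock mean within it. In sequences whose mean over the 6 libraries lay in the band but that failed the ratio limit there, the shares were 43.7%, 55.9% and 54.9%. The lists share libraries, so they are not independent of each other.

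Among the 1107, the ratio of the heat mean to the mean of the other 6 libraries ran from 0.192 to 16.7, with a median of 0.994, and 68 were above 2 and 15 below 0.5. Niben101Scf07428 (380428 nt) had 123.5 ± 4.34 CPM in mock, 128.3 ± 8.65 CPM in wound and 2098 ± 317 CPM in heat libraries (SD, n = 3), and it was higher after heat (edgeR adjusted p = 1.015e-09). Niben101Scf11588 (170824 nt) went the other way, with 197.8 ± 18.5 CPM in mock, 200.6 ± 3.5 CPM in wound and 38.2 ± 9.3 CPM in heat libraries (SD, n = 3), and it was lower after heat (edgeR adjusted p = 3.132e-07). Both were named after their values were seen. In the left-out reading for wounding, the ratio ran from 0.695 to 3.11.

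Leaving out 1 library at a time gave another reading. The 8 choosing libraries include the other replicates of the left-out library's group. The reading therefore concerns agreement between replicates, and it does not check steadiness between treatments. No share for the rest of the band was taken beside it. Choosing on 8 libraries gave 306 to 369 sequences, and the left-out library was at 80% to 125% of the mean of the 8 for between 95.7% and 99.7% of them. All 9 libraries then stayed within the limit for 77.5% (72.9% to 81.7%, exact 95% interval) when mock replicate 2 was left out, the lowest, and for 93.5% (90.1% to 96%) when mock replicate 1 was left out, the highest. Heat replicate 2 came next to the lowest with 80.6%. The intervals treat sequences as independent, while each share was read in 1 library. They say nothing of how a further library would behave. The medians of the left-out value over the mean of the 8 lay between 0.975 and 1.02.

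Which sequences counted as steady depended on how libraries were scaled. With TMM factors 277 sequences met the rule, of which 264 were among the 285, and with RLE size factors 276 did, of which 257 were shared. The TMM and RLE factors lay near the deposited ones in every library, so much of this overlap is built in. In mock replicate 2, the deposited, TMM and RLE factors were 1.099, 1.091 and 1.089, and the upper-quartile factor was 1.041. Upper-quartile factors gave 202 sequences, of which 108 were shared, and library totals without a factor gave 200, of which 131 were shared. In all, 72 of the 285 (25.3%) met the ratio limit under all 5 scalings. Upper-quartile factors moved the median heat log2 fold change of all 9645 tested sequences from 0.01 to -0.17. That of the steady ones went from -0.0092 to -0.19. Totals alone moved these medians to -0.12 and -0.14. A change of library factors moves all sequences by about the same amount, so the steady ones move with the bulk by construction.

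**Figure D5:**
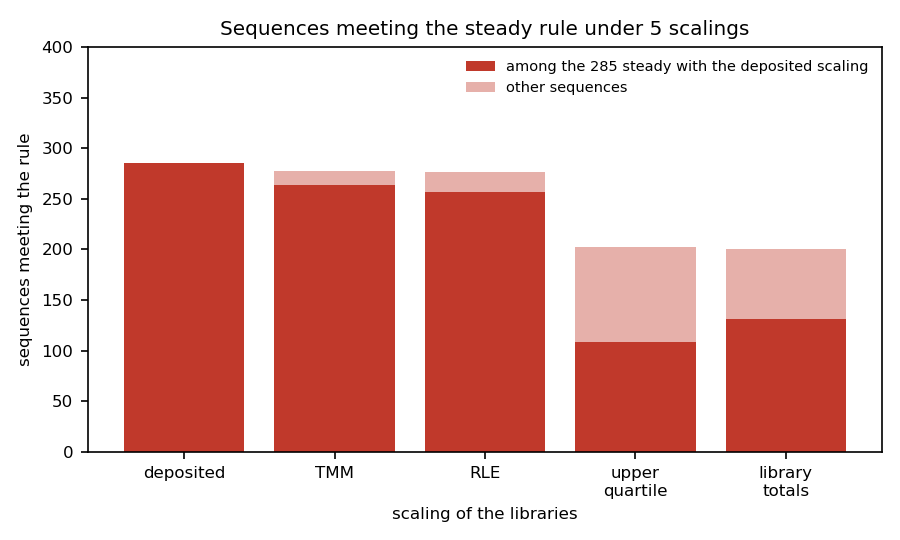
Number of sequences that meet the rule when the counts are scaled by the authors' deposited factors, TMM, RLE or upper-quartile factors or library totals alone. The dark part of each bar is shared with the 285 of the deposited scaling, which was 264, 257, 108 and 131 for the others.

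The sequence with the smallest worst ratio over the 5 scalings was Niben101Scf00085, at 1.136, which was also among the 5 lowest with the deposited scaling. It was followed by Niben101Scf00542 (888966 nt) at 1.149 and Niben101Scf08724 (807953 nt) at 1.15, named after their values were seen. The steadiest by the deposited scaling, Niben101Scf07030, reached 1.226 with upper-quartile factors, and Niben101Scf00585 passed the limit at 1.265 with library totals. Of the short ones, Niben101Scf02685 stayed within 1.234 in every scaling, whereas Niben101Scf05819 and Niben101Scf08859 reached 1.312 and 1.255 with upper-quartile factors. Of the 4 widest named above, Niben101Scf05552 stayed within the limit in every scaling, with 1.243 its largest ratio, and Niben101Scf09628, Niben101Scf00110 and Niben101Scf10067 passed it with upper-quartile factors.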

How the data were processed

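RNA of 9 leaf libraries was counted by the authors over whole scaffolds and contigs. Per the file headers, the deposited table gives total counts, RPKM, TPM and CPM per library. The deposited counts are whole numbers. The deposited RPKM is per kilobase of the whole sequence, and TPM was not used here. The deposited CPM columns are a scaled signal, the count divided by 1 constant per library. The build of the genome is given only by the prefix Niben101 in the names of the sequences. The aligner and the counter are not given in the sources. Nor is the handling of reads with several matching places, so near-identical copies are uncertain. No genome was used here, so no sequence is printed. The members, lists and tests were chosen with earlier results of these data known.

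The rule was applied to the deposited CPM columns in Python 3.11.15 (pandas 2.3.3, SciPy 1.17.1). Counting noise was summed exactly from Poisson probabilities, checked on simulated counts. It covers counting error only, since PCR copies were not marked by molecular identifiers. The test of counts used edgeR 4.0.16 under R 4.3.3: filterByExpr, TMM factors and 1 quasi-likelihood model of 3 groups, at an adjusted p of 0.05. All 3310 sequences of the band were tested, so none of the 285 was lost to the filter. DESeq2 1.42.0 was an alternative. The test was tried on simulated data. Standard errors are the log2 fold change over the square root of F. CVs use the SD over 9 libraries.

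Named were the 5 steady sequences of lowest ratio, the 3 shortest, the 2 longest, those of highest and lowest mean, the widest fitted change each way per treatment, and the neighbours of each limit. The planned gene and marker lists could not be applied, since 0 rows carry an identifier.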

Additional observations from a re-analysis of the deposited data

How the results depend on the processing

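The limits and the scaling decided the set. A ratio limit of 1.2 left 127 steady sequences, 1.3 gave 433 and 1.5 gave 1138, and a mean floor of 100 CPM left 178, all by construction. Other floors, caps, a CV limit of 8% (342 sequences, 273 shared) and other scalings kept the number within 1.5 times. Leaving out 1 library gave 306 to 369. The number expected from counting noise and the numbers within 1 or 2 groups stayed within 1.5 times with TMM factors, upper-quartile factors and library totals, and the median share kept by a left-out library was 81.45% to 85.63%.

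Counts of steady sequences called by the test were small in the main test and changed with the setting. Higher and lower after heat, 7 and 3 in the main test, were 0 and 109 with upper-quartile factors, beside 21.1% and 33.1% of all tested sequences. Library totals gave 0 and 48, beside 22% and 29.2%, and the replicate block gave 2 and 1, beside 25.8% and 20.7%. Without a filter they were 0 and 0, beside 17.5% and 14.3%. At an adjusted p under 0.01 they were also 0 and 0, where no share was taken. The lower calls were 6 with RLE and 8 with DESeq2, beside 23.7% and 24.4%. After wounding, 0 and 1 became 1 and 3 with DESeq2, beside 10.8% and 7.85%. The lower calls were 3 with upper-quartile factors, beside 7.89%. They were 0 without a filter (beside 4.14%), with the block (beside 3.44%) or at 0.01. Between treatments, 9 and 3 became 0 and 50 with upper-quartile factors, beside 22.5% and 31.7%, and 0 and 17 with totals, beside 23.2% and 28.4%. DESeq2 gave 18 and 4, beside 27.7% and 25.2%, and the block gave 4 and 0, beside 25.1% and 23.3%. Without a filter they were 0 and 0, beside 16.7% and 15.8%, as they were at 0.01. Leaving out 1 library gave 2 to 8 higher and 0 to 2 lower after heat, beside 24.2% to 27.2% and 18.8% to 21.6% of all tested sequences. After wounding it gave 0 higher and 0 to 1 lower, beside 6.27% to 11.3% and 1.97% to 6.13%. Between treatments it gave 2 to 17 higher and 0 to 3 lower, beside 23.4% to 28.1% and 20.4% to 24.1%. At an unadjusted p under 0.05, upper-quartile factors gave 144 lower and 0 higher after heat, and no filter gave 1 lower and 4 higher. No share of all tested sequences was taken at that threshold, so nothing is read from these counts. A change of library factors moves all fitted log2 fold changes by about the same amount. With upper-quartile factors the heat median moved from 0.01 to -0.17 over all tested sequences and from -0.0092 to -0.19 over the steady ones. For settings other than the scaling, the cause of the shifts was not tested. Deviations from the group means had correlations of -0.144 to 0.109 between same-numbered libraries and of -0.137 to 0.166 between differently numbered ones. In 2 of 9 libraries the best correlation was with their own number. The labels do not say whether the numbers pair the libraries, and these weak correlations cannot decide it. The smallest count of a steady sequence in a library was 602, a value that the floor on the mean helps to set.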
